A study of Homo sapiens with 18 samples.

Results

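The genes of the mitochondrial ribosome that carry MRPL or MRPS symbols were read across every library of an RNA-seq study of the transcription factor POU2F3. A gene was a member if its symbol was MRPL or MRPS followed by a digit and its mean was at least 1 TPM (transcript abundance per length, scaled to a fixed total in every library) over the 18 libraries. This gave 78 genes of the 13066 with such a mean and of 19744 named genes in the table. All 78 symbols that matched reached the mean of 1 TPM, the lowest of them by a wide margin (MRPL22, 9.19 TPM), so no member lay near the threshold and none was left out. The names give 49 large-subunit (MRPL) and 29 small-subunit (MRPS) symbols. By the position of the protein in the ribosome 51 belong to the large subunit and 26 to the small, since MRPS30 and MRPS18A are large-subunit proteins despite their names, and MRPS36 is a subunit of the alpha-ketoglutarate dehydrogenase complex and not of the ribosome.

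The parent was NCI-H211, a cell line from small cell lung cancer with tuft-cell features, made to carry Cas9. The 3 stable derivatives compared were 1 line each, so p-values measure the spread between infections and not between independently made lines. They were cells with an empty vector, cells with a guide-resistant POU2F3 cDNA (WT), and cells with that cDNA bearing the L191A change. Lentivirus brought in a guide to the cell's own POU2F3 gene (sgPOU2F3) or a control guide (sgRosa), with 3 infections of each kind, and poly(A) RNA was collected at day 5. The 6 groups, each of 3 libraries, were empty vector with sgRosa, empty vector with sgPOU2F3, WT with sgRosa, WT with sgPOU2F3, L191A with sgRosa, and L191A with sgPOU2F3. All groups share the Cas9-carrying parent and a guide virus, whose mCherry marker was on in nearly all cells per the labels.

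Mitochondria keep their own ribosome, which translates the few proteins encoded by mitochondrial DNA, all of them subunits of the respiratory chain and ATP synthase. Its RNAs come from mitochondrial DNA, but every one of its proteins is encoded in the nucleus, made in the cytosol and imported. Some of these proteins descend from bacterial ribosomal proteins, and others were added in the mitochondrial lineage, where they replace lost ribosomal RNA, line the polypeptide exit or tie the ribosome to the inner membrane.

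The values were TPM, from which read depth cannot be recovered, so no counting interval was set. POU2F3 itself read 682, 654 and 853 TPM in the empty-vector sgRosa libraries and 253, 318 and 274 TPM after sgPOU2F3, and 1701, 1880.5 and 1796 TPM in WT cells with sgRosa, where the cDNA adds to it. The libraries were not all alike. L191A sgRosa replicate 1 had its median tested gene at 7.05 TPM and WT sgPOU2F3 replicate 1 at 12.7 TPM, where the other 16 libraries had 18.6 to 26.4 TPM. POU2F3 was also at 142 TPM in the first of these, against 1053 and 831 TPM in its replicates. Relative to their replicates, the log2 level of genes changed by -0.65 and -0.21 for each doubling of transcript length in these 2 libraries, and the members' median was higher by 1.54 and 0.71 after rescaling. All values were rescaled by the median ratio over genes (scaled TPM below), and every comparison is given with all 18 libraries and with the 16 that remain without this pair, called the skewed libraries. Of 10 tuft markers, 7 (POU2F3, TRPM5, AVIL, ASCL2, SOX9, BMX and LRMP) were at or above 16.1 TPM in every library, while GFI1B, SH2D6 and CHAT went as low as 5.27, 2.41 and 0.516 TPM. Of 4 blood-cell markers, CD3E was listed at 0 and CD79A at most 0.483 TPM, but PTPRC read 0.581 to 6.80 and CD14 1.43 to 10.8 TPM. Among neuroendocrine markers, CHGA was at most 0.989 and SYP at most 1.36 TPM, NEUROD1 reached 2.05 TPM, and INSM1 (1.25 to 7.52 TPM) and DLL3 (4.63 to 23.0 TPM) were present throughout. The 6 packaging-line markers were at most 0.668 TPM.

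Promoter sequence was shown for members that the comparisons turn on and for members that share a motif, to let the reader see both kinds. Of the 78 members, 69 matched a RefSeq promoter window (GRCh38.p14, 250 bases before to 50 after an annotated start), 85 windows in all because some genes have several starts. Both strands of each window were searched for exact matches to 6 short motifs. None contains another, but matches to some pairs can share letters at their ends, as the ETS and YY1 cores can share AAG. The ETS core CCGGAAG, which factors of the GABP type read, was in 33 of the 85 windows (38.8%), beside 10.3% of all 35116 windows and 16.5% of the windows of genes tested here. The YY1 core AAGATGGCG was in 15.3%, beside 1.75% of all windows and 3.31% of those of tested genes. NRF1's core GCGCATGC was in 7.06% (3.05% of all windows, 4.6% of those of tested genes) and the E-box CACGTG in 10.6% (7.26% and 9.18%). The TATA motif TATAAA was in 3.53% (11.5% of all, 6.39% of those of tested genes). The octamer ATGCAAAT, the motif POU2F3 reads, was in 0 of 85 (1.77% of all windows, 1.42% of those of tested genes). With a motif that rare, its absence from 85 windows says little. By subunit the ETS core was held by 19 of 44 matched large-subunit genes and 11 of 25 small-subunit genes. A match is only a run of letters and was not shown to be bound here.

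The stretches below are the 120 bases just before the outermost annotated start of each gene, 5′ to 3′ on the gene's strand, with any of the 6 motifs in capitals. MRPL4 and MRPS25 are shown because they moved most clearly, in opposite directions, after sgPOU2F3, and neither holds a match. MRPL3, MRPL20, MRPL58 and MRPS18A show the ETS core as it occurs in members.
MRPL4, chr19:10251781-10251900, plus strand: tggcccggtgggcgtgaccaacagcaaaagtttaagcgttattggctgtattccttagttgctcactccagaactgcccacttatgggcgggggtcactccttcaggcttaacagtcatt
MRPS25, chr3:15065336-15065455, minus strand: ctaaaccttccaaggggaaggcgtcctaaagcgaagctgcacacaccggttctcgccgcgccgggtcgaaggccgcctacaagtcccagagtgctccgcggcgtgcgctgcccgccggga
MRPL3, chr3:131502984-131503103, minus strand: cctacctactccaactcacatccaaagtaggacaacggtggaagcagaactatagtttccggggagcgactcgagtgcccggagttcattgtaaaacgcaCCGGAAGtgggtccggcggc
MRPL20, chr1:1407314-1407433, minus strand: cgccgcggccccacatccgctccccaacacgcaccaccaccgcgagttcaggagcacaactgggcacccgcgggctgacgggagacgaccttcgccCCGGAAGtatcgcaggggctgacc
MRPL58, chr17:75012550-75012669, plus strand: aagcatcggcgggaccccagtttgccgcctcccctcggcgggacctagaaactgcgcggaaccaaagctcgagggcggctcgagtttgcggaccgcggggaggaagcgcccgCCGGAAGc
MRPS18A, chr6:43687792-43687911, minus strand: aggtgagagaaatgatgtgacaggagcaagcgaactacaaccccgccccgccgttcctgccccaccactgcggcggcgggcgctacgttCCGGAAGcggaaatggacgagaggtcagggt

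The members were abundant transcripts. Their median was 87.7 TPM (mean over libraries, per length), beside 20.7 TPM for all genes tested, and 75 of the 78 lay above that median. Large-subunit members had a median of 79.0 TPM and small-subunit members 93.1 TPM. The highest were MRPL51 (543 TPM, a protein with no bacterial counterpart), MRPL33 (496 TPM), MRPL21 (449 TPM), MRPL20 (445 TPM) and MRPL13 (382 TPM), all of the large subunit. The lowest were MRPL22 (9.19 TPM) and MRPL23 (11.8 TPM), proteins of the exit tunnel, then MRPS11 (14.4 TPM), MRPS31 (22.3 TPM) and MRPS36 (26.6 TPM). No member was listed at 0 in any library. Their transcripts were short, with a median of 1137 nt beside 2512 nt for all genes tested, and 75 of 78 were under the tested median. Their lengths are given because the skewed libraries differ from their replicates by transcript length.

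As a group, the members were lowest in WT cells with sgRosa. The median scaled TPM over the 78 was 53.38, 57.98 and 57.02 in those 3 libraries, beside 77.0, 81.7 and 55.0 in empty-vector cells with sgRosa. After sgPOU2F3 it was 122, 79.4 and 76.7 in WT cells (the first value from the skewed library) and 105, 77.9 and 96.8 in empty-vector cells. L191A cells read 263, 94.4 and 101 with sgRosa, again with the skewed library first, and 90.7, 91.5 and 91.1 with sgPOU2F3. Outside the skewed libraries, all 5 L191A values lay above every sgRosa value of the other 2 lines, and all 3 WT sgRosa values lay below every other library except empty-vector sgRosa replicate 3, which at 55.0 fell between them. That library was also low in its group for the cytosolic ribosomal proteins (17.3% of TPM, against 21.1% and 22.5%). The factors that divided TPM in the rescaling were highest in WT sgRosa (1.38, 1.21 and 1.22) and in that same library (1.31). They were lowest in the skewed libraries (0.394 for L191A sgRosa and 0.699 for WT sgPOU2F3), which had the highest medians of the members. The low and high ends of the order thus lay at the ends of the factors, and the part of this in the order was not tested.

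Gene by gene the order was much the same. WT sgRosa had the lowest group mean for 69 of the 78 members, both with and without the skewed libraries, and empty-vector sgRosa for 6. The highest group was L191A sgRosa for 75 members with 18 libraries. Without its skewed replicate it was highest for 35, followed by empty vector with sgPOU2F3 for 19, L191A with sgPOU2F3 for 16, WT with sgPOU2F3 for 6, and the 2 remaining groups for 1 each. The fold between a member's lowest and highest group mean had a median of 3.08 with 18 libraries and 1.87 with 16, where it ran from 1.20 (MRPL10) to 2.99 (MRPL36). The share of all TPM that the members held, with no rescaling, was also lowest in WT sgRosa: 0.700, 0.738 and 0.741% in WT sgRosa, 0.884, 0.907 and 0.757% in empty-vector sgRosa, and 1.03, 1.01 and 1.01% in L191A sgPOU2F3.

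The most abundant member, MRPL51, shows this order at high level. It was at 246, 344 and 345 scaled TPM in WT sgRosa and 416, 472 and 255 in empty-vector sgRosa, then 631, 390.4 and 556 and 808, 502 and 461 after sgPOU2F3 in empty-vector and WT cells. In L191A cells it was at 3361, 533 and 616 with sgRosa and 534, 539 and 604 with sgPOU2F3. MRPL36, a zinc-binding large-subunit protein with a bacterial counterpart and the widest range of group means without the skewed pair, was at 25.1, 37.4 and 33.4 in WT sgRosa, 60.1, 58.2 and 29.9 in empty-vector sgRosa and 222, 86.3 and 105 in L191A sgRosa. Its L191A values lay above all values of the other 2 lines under that guide. MRPL10, whose protein is the base of the stalk, had the narrowest range, at 77.7, 101 and 99.5 in WT sgRosa, 94.1, 104 and 73.8 in empty-vector sgRosa and 197, 103 and 111 in L191A sgRosa. These 3 members were picked after their values were seen, as the extremes of the set.

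The 2 subunits moved together but not to the same extent. The summed scaled TPM of large-subunit members over that of small-subunit members was 2.25, 2.28 and 2.16 in empty-vector sgRosa and 2.41, 2.36 and 2.37 after sgPOU2F3, with no overlap. In WT cells it was 2.09, 2.25 and 2.17 and 2.46, 2.35 and 2.31, again with no overlap and with the skewed library highest. L191A cells read 2.62, 2.38 and 2.35 with sgRosa and 2.44, 2.40 and 2.44 with sgPOU2F3, so that without the skewed library the latter group was the higher. The skewed L191A library had both the highest ratio and the highest median of the members, and large-subunit transcripts are the shorter (median 1035 nt against 1415.5 nt); the part of transcript length in the ratio was not tested.

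**Figure D1:**
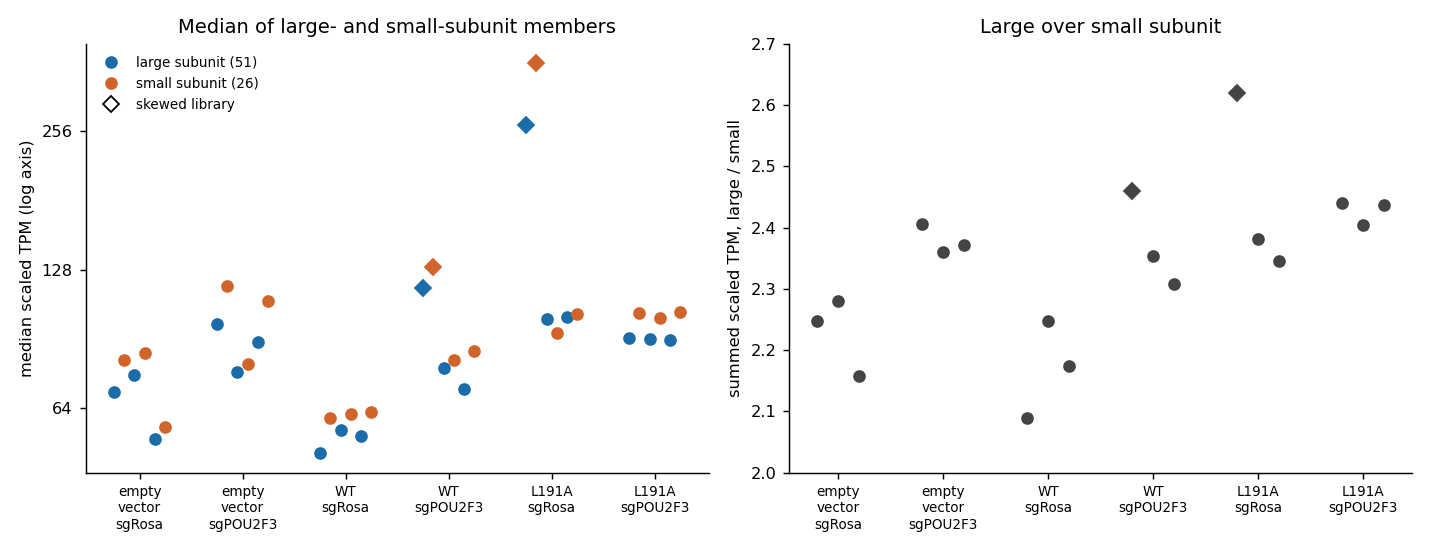
Median scaled TPM of the large-subunit (51) and small-subunit (26) members in each of the 18 libraries on a log axis (left), and the summed scaled TPM of the large over the small subunit (right, axis from 2.0), by line and guide, with 1 point a library and diamonds for the 2 skewed libraries. WT sgRosa libraries and empty-vector sgRosa replicate 3 lie at the low end, and L191A sgRosa replicate 1 lies highest in both panels, with a ratio of 2.62.

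After POU2F3 was targeted in empty-vector cells, which have no cDNA to replace it, a part of the members rose, MRPL4, MRPS12, MRPS2 and MRPL49 the most clearly, and MRPS25 was lower. A call is an adjusted p under 0.05 in limma, with Benjamini-Hochberg adjustment over all 13066 genes. Over all 18 libraries, 4 of 78 members (5.13%) were called higher and 0 lower, beside 13% higher and 13.5% lower among all genes tested. Over 16 libraries, 50 (64.1%) were called higher and 1 (1.28%) lower, against 28.5% and 26.9% of all genes. The change was above 0 for 70 members and below 0 for 8 in both fits. Every sgPOU2F3 library lay above every sgRosa library for 28 members (35.9%), beside 28.3% of all genes tested. The median change on the log2 scale was 0.47 for the large and 0.34 for the small subunit with 18 libraries, and 0.47 and 0.34 with 16 (all genes tested, 0.01 and 0.01). Single changes ran from -0.41 (MRPS25) to 1.09 (MRPS12). The share called higher lay below the background with 18 libraries and above it with 16. The members' changes are the same in both fits, since no empty-vector library was left out; what differs is the spread that all groups share in the model. With 18 libraries, leaving out empty-vector sgRosa replicate 1 or 3, or sgPOU2F3 replicate 1 or 3, left 1 call each. In bulk RNA, more RNA of these genes per cell and more cells of a kind that makes it cannot be told apart.

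The largest and clearest rises were those of MRPL4 and MRPS12. MRPL4, which lines the polypeptide exit tunnel, was at 90.6, 80.4 and 65.6 scaled TPM with sgRosa and 166, 133 and 152 with sgPOU2F3, a log2 change of 0.93 ± 0.21 (SE, adjusted p = 0.00378, limma). MRPS12, of the decoding centre, went from 79.3, 83.4 and 51.6 to 184, 125 and 147 scaled TPM (1.09 ± 0.36, adjusted p = 0.0366, limma). In both genes every sgPOU2F3 library lay above every sgRosa library. The others called with 18 libraries were MRPS2, a small-subunit protein with a bacterial counterpart, at 34.8, 33.8 and 26.5 and then 57.7, 43.6 and 49.3 scaled TPM (0.65, adjusted p = 0.0374, limma), and MRPL49, a mitochondria-specific protein, at 64.5, 69.8 and 61.4 and 93.6, 79.3 and 89.1 (0.41, adjusted p = 0.0170, limma). Neither overlapped between guides. For MRPL49 the change was 0.19 once each library's trend against transcript length was removed, which no longer passed (adjusted p = 0.168, limma, 16 libraries).

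Beyond these, 46 members were called higher only in the fit of 16 libraries. By the rule on the smallest p, they were led by MRPL41, a mitochondria-specific large-subunit protein (28.9, 31.8 and 19.8 against 58.1, 44.0 and 48.1 scaled TPM, 0.89 ± 0.15, adjusted p = 0.000111, limma, 16 libraries). MRPL12, which forms the stalk that recruits translation factors, was at 145, 149 and 109 and 271, 187 and 230.4 (0.77, adjusted p = 0.000176, limma, 16 libraries, and 0.142 with 18). The sgPOU2F3 values again lay above all sgRosa values. MRPL38 (0.52), MRPL2 of the peptidyl transferase centre (0.56), MRPL34 (0.55) and MRPL1, which forms the other stalk of the large subunit, (0.69) followed, with adjusted p from 0.000218 to 0.00105 (limma, 16 libraries). With the length trend removed in addition, the median was 0.37 for the large and 0.26 for the small subunit. On the deposited scale, without rescaling, the members' median was 0.28 and that of all genes -0.13.

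In WT cells, where the cDNA persists after the guide, the members' values were also higher after sgPOU2F3, with MRPL3, MRPS35, MRPL18 and MRPL15 called first and MRPS25 again lower. The fit of 18 libraries called 7 of the 78 members higher (8.97%) and 1 lower (1.28%), where 7.68% and 5.29% of all genes tested were called higher and lower. That of 16 libraries called 44 higher (56.4%) and 1 lower (1.28%), where 17.3% and 8.63% of all genes were. The share called higher was near the background with 18 libraries and above it with 16. The change was above 0 for 77 of 78 members in both fits. Every sgPOU2F3 library lay above every sgRosa library for 68 members (87.2%), beside 31.3% of all genes tested. Large-subunit members had a median log2 change of 0.78 and small-subunit members of 0.66 with 18 libraries, against 0.01 for all genes tested; with 16 these were 0.54, 0.47 and 0.02. With the length trend removed from 16 libraries the medians were 0.28 and 0.26. Cytosolic ribosomal proteins moved in the same libraries, with a median change of 0.69 with 16 libraries (in empty-vector cells 0.00); their part in the members' change was not tested. On the deposited scale 55 of 78 changes were above 0, with a median of 0.27 where all genes had -0.42. With 18 libraries the count of calls was 0 without WT sgRosa replicate 1 or 2 or without WT sgPOU2F3 replicate 1, and 65 without L191A sgRosa replicate 1.

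MRPL3, a large-subunit protein with a bacterial counterpart, had the smallest p in WT cells. It stood at 129.9, 147 and 147 scaled TPM with sgRosa and 347, 232 and 202 with sgPOU2F3 (0.84 ± 0.20, adjusted p = 0.0172, limma; 0.62 ± 0.14 with 16 libraries). MRPS35, a mitochondria-specific small-subunit protein, was at 86.8, 106 and 108 and 278, 174 and 156 (0.96, adjusted p = 0.0226, limma). MRPL15 was at 16.1, 18.3 and 21.1 and 58.1, 36.1 and 30.4 scaled TPM (1.08, adjusted p = 0.0412, limma). In each of these the highest sgPOU2F3 value came from the skewed library, and the other 2 still lay above all sgRosa values. MRPL18 (1.03, adjusted p = 0.0366, limma) completed the first 4. With 16 libraries MRPL46 (0.80), MRPL48 (0.83), MRPL42 (0.54) and MRPL15 (0.82) led. The 2 lines share no libraries, but their calls share the fit's estimate of the spread. With 16 libraries 32 members were called higher in both (of the 50 so called in empty-vector cells and the 44 in WT cells). A further 18 were called in empty-vector cells and not WT, and 12 in WT and not empty-vector cells. The share of all genes called higher in both lines was not counted, so no conclusion is drawn from the overlap. Those called in both were MRPL1, MRPL11, MRPL16, MRPL17, MRPL18, MRPL20, MRPL21, MRPL27, MRPL28, MRPL3, MRPL32, MRPL33, MRPL34, MRPL35, MRPL36, MRPL37, MRPL39, MRPL46, MRPL47, MRPL48, MRPL50, MRPL57, MRPL58, MRPS12, MRPS15, MRPS17, MRPS18C, MRPS22, MRPS23, MRPS35, MRPS7 and MRPS9. The 18 were MRPL12, MRPL14, MRPL2, MRPL38, MRPL4, MRPL41, MRPL49, MRPL52, MRPL54, MRPL55, MRPL9, MRPS11, MRPS18B, MRPS2, MRPS24, MRPS26, MRPS34 and MRPS5, and the 12 were MRPL13, MRPL15, MRPL22, MRPL24, MRPL40, MRPL42, MRPL45, MRPS14, MRPS18A, MRPS28, MRPS31 and MRPS33. The difference between the lines is tested below.

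**Figure D2:**
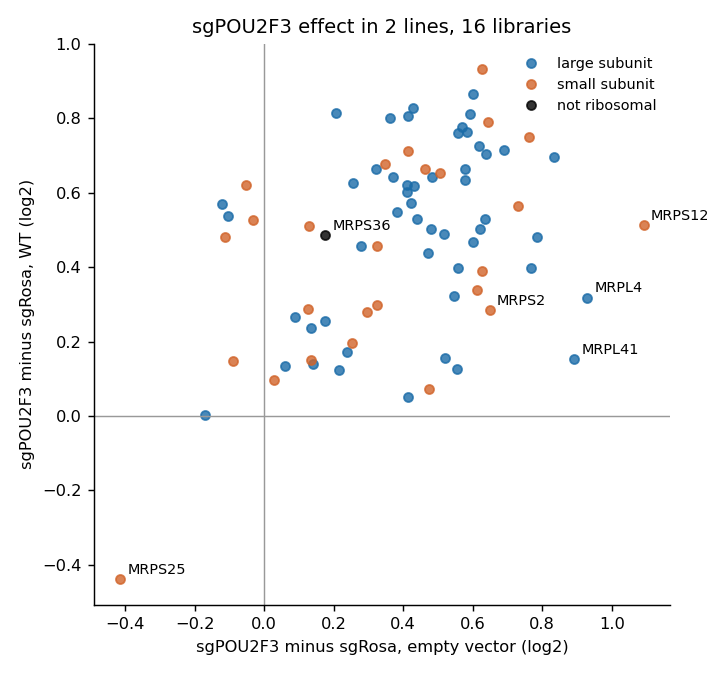
Log2 change of each of the 78 members after sgPOU2F3 in empty-vector cells (horizontal) and in WT cells (vertical), 16 libraries, with 1 point a gene coloured by subunit. Nearly all points are above 0 on both axes; MRPS25 alone is below 0 on both, at -0.41 and -0.44, and MRPL4, MRPS12 and MRPL41 lie farther right than up.

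In L191A cells no member was called higher after the guide, and MRPS25 was the member called lower. Of the 78 members, 0 were called higher and 1 (1.28%) lower with 18 libraries, against a background over all genes tested of 6.35% higher and 3.35% lower. Without the skewed pair, 0 were higher and 1 (1.28%) lower, against a background of 9.15% and 6.34%. Both shares lay below the background. All 78 changes were below 0 with 18 libraries, and 23 were above 0 with 16. By subunit the median log2 change was -0.61 (large) and -0.57 (small) with 18 libraries and -0.08 and -0.05 with 16, where all genes tested had -0.05 and -0.02. Leaving out L191A sgRosa replicate 2 in place of the skewed replicate gave 17 calls, and leaving out replicate 3 gave 9.

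The effect of sgPOU2F3 was also compared between lines directly, by the difference of the 2 effects. Between L191A and empty vector it was lower in L191A for all 78 members with 18 libraries and for 76 with 16. Over all 18 libraries, 0 of 78 members were called higher and 6 (7.69%) lower, beside 6.18% higher and 5.81% lower among all genes tested. Over 16 libraries, 0 were called higher and 17 (21.8%) lower, against 13.9% and 14.9% of all genes. The share called lower was near the background with 18 libraries and above it with 16. MRPL4 had the smallest p (-1.39 ± 0.30, adjusted p = 0.00774, limma; -1.07 ± 0.17 with 16 libraries, adjusted p = 0.000345). In L191A cells it was at 284, 132 and 163 scaled TPM with sgRosa and 135, 137 and 126 with sgPOU2F3, and apart from the first, skewed sgRosa value these lay near those of empty-vector cells after sgPOU2F3. MRPS2 (-1.06), MRPL38 (-1.16) and MRPL41 (-1.77) followed, and with 16 libraries MRPL38 (-0.76), MRPL34 (-0.79) and MRPL41 (-1.12). Between L191A and WT the difference was below 0 for 77 members in both fits. The fit of 18 libraries called 0 of the 78 members higher and 14 lower (17.9%), where 6.62% and 7.19% of all genes tested were called higher and lower. That of 16 libraries called 0 higher and 16 lower (20.5%), where 7.23% and 7.89% of all genes were. The shares called lower were above the background in both fits, and the count with 18 libraries ran from 0 (for instance without WT sgRosa replicate 1) to 75 (without L191A sgRosa replicate 2). MRPL15 (-1.73 ± 0.45, adjusted p = 0.0267, limma; -0.98 with 16 libraries), MRPL42 (-1.18 and -0.66), MRPL3 (-1.01) and MRPS35 (-1.21) were named with 18 libraries, and MRPL46 (-0.94) and MRPL16 (-0.79) with 16.

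Between WT and empty-vector cells a differing response was called only with 16 libraries, in both directions and for smaller shares of members than of all genes. Of the 78 members, 0 were called higher and 0 lower with 18 libraries, against a background over all genes tested of 7.23% higher and 7.97% lower. Without the skewed pair, 6 (7.69%) were higher and 4 (5.13%) lower, against a background of 17.9% and 16.6%. All of these shares lay below the background. At an unadjusted p of 0.05, 2 members passed with 18 libraries, where 30.1% of all genes did. With 16, the response was larger in WT cells for MRPL42 (0.64), MRPS14 (0.59), MRPS31 (0.56) and MRPL45, which sits at the inner membrane by the exit (0.69). It was smaller in WT cells for MRPL4 (-0.61), MRPL41 (-0.74), MRPL49 (-0.36) and MRPL2 (-0.43). MRPL4 was at 74.4, 75.0 and 78.8 scaled TPM and then 108, 98.8 and 91.4 in WT cells, with no overlap. MRPL42 was at 84.6, 96.1 and 83.5 and 92.5, 72.0 and 81.8 in empty-vector cells and at 54.5, 63.9 and 60.5 and 123, 86.9 and 86.7 in WT cells, so its guides overlapped in the first line and not in the second.

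Under the control guide the 3 lines already differed, and nearly every member was higher in L191A than in WT cells. Over all 18 libraries, 73 of 78 members (93.6%) were called higher and 0 lower, beside 28.4% higher and 21.9% lower among all genes tested. Over 16 libraries, 72 (92.3%) were called higher and 1 (1.28%) lower, against 31.9% and 25.9% of all genes. The shares called higher were well above the background in both fits. The change was above 0 for 77 members with 18 libraries and 76 with 16. Every L191A library lay above every WT library for 74 members (94.9%), beside 31.6% of all genes tested. The median change on the log2 scale was 1.43 for the large and 1.26 for the small subunit with 18 libraries, and 0.92 and 0.68 with 16 (all genes tested, 0.02 and 0.03). With the length trend removed from 16 libraries the medians were 0.67 and 0.45. The cytosolic ribosomal proteins moved the same way, with a median of 1.23 with 18 libraries and 0.55 with 16; their part was not tested. On the deposited scale the members' median was 0.57 and that of all genes -0.67. MRPL3 was at 129.9, 147 and 147 scaled TPM in WT and 438, 309 and 346 in L191A cells (1.35 ± 0.20, adjusted p = 9.68e-05, limma; 1.21 with 16 libraries). MRPL15 was at 16.1, 18.3 and 21.1 and 151, 50.3 and 58.0 (1.99; 1.504 with 16). All L191A values exceeded all WT values in both, also without the first, skewed one. MRPS35 (1.18 with 16 libraries), MRPL4 (0.94), MRPL46 (1.19) and MRPL32, a zinc-binding protein matured by a mitochondrial protease (1.20), also led. MRPS25 had the opposite sign, at -0.28 ± 0.15 and -0.48 (adjusted p = 0.000115 with 16 libraries, limma).

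L191A cells were also above empty-vector cells under sgRosa. The fit of 18 libraries called 54 of the 78 members higher (69.2%) and 0 lower, where 17.2% and 14.2% of all genes tested were called higher and lower. That of 16 libraries called 49 higher (62.8%) and 1 lower (1.28%), where 21.3% and 18.8% of all genes were. Here too the shares called higher were above the background. Large-subunit members had a median log2 change of 1.01 and small-subunit members of 0.85 with 18 libraries, against 0.02 for all genes tested; with 16 these were 0.54, 0.44 and 0.03. Cytosolic ribosomal proteins had medians of 1.10 and 0.40 in these 2 fits; their part was not tested. A change above 0 was seen for 77 members with 18 libraries and 74 with 16. MRPL4 (1.21 ± 0.21, adjusted p = 0.000724, limma; 0.90 with 16 libraries), MRPS12 (1.66 and 1.04), MRPL34 (1.19 and 0.73) and MRPL38 (0.97 and 0.56) led in both fits. MRPS12 was at 529, 134 and 156 scaled TPM in L191A sgRosa. The comparison shares its empty-vector sgRosa libraries with the sgPOU2F3 effect above, so the names common to both lists are not independent. With 18 libraries the count of calls was 4 without the low empty-vector sgRosa replicate 3, 29 without its replicate 1 and 27 without L191A sgRosa replicate 1.

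WT cells, by contrast, had lower values than empty-vector cells under sgRosa, MRPS10 and MRPL3 among them. Of the 78 members, 0 were called higher and 2 (2.56%) lower with 18 libraries, against a background over all genes tested of 7.44% higher and 6.16% lower. Without the skewed pair, 2 (2.56%) were higher and 38 (48.7%) lower, against a background of 19.1% and 24.2%. The share called lower was under the background with 18 libraries and above it with 16. By subunit the median log2 change was -0.33 (large) and -0.34 (small) with 18 libraries and -0.33 and -0.34 with 16, where all genes tested had -0.04 and -0.04. Changes were below 0 for 68 members. MRPS10, a small-subunit protein with a bacterial counterpart, was at 83.8, 85.4 and 85.8 scaled TPM in empty-vector and 61.7, 52.4 and 52.4 in WT cells (-0.61 ± 0.16, adjusted p = 0.0202, limma). MRPL3 was -0.61 (adjusted p = 0.04996, limma), and with 16 libraries MRPL15 (-0.99), MRPL46 (-0.84) and MRPL42 (-0.56) were called as well. For MRPL15 the values were 38.9, 41.7 and 32.6 in empty-vector cells and 16.1, 18.3 and 21.1 in WT cells, with no overlap. The exception was again MRPS25, higher in WT cells by 0.41 ± 0.07 (adjusted p = 0.000303, limma, 16 libraries). The WT sgRosa libraries also enter the WT guide effect, L191A against WT under sgRosa and the differences of effect that involve WT. Names common to these lists, such as MRPL3 and MRPL15, are therefore not independent.

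**Figure D3:**
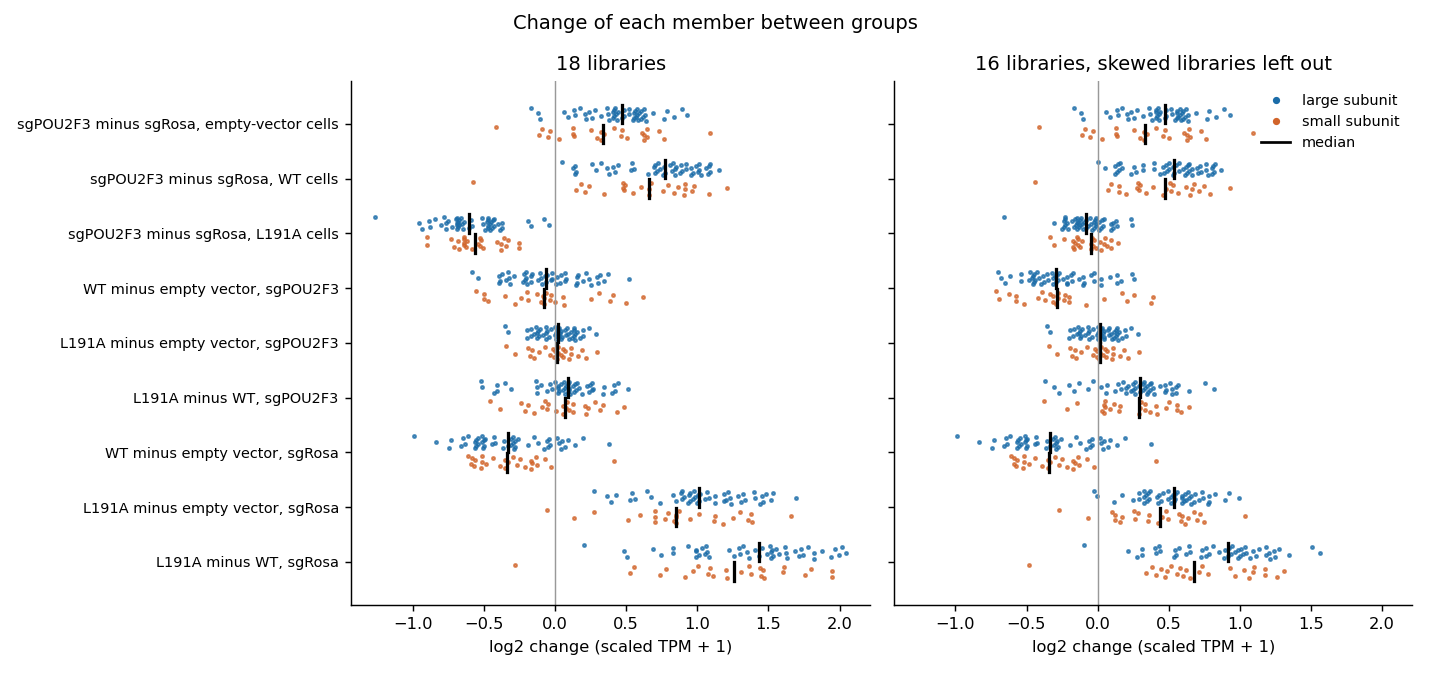
Log2 change of each large-subunit (blue) and small-subunit (orange) member in the 9 comparisons between groups, with 18 libraries (left) and 16 (right); each point is a gene and the black bar the median. The large-subunit median in L191A against WT under sgRosa is 1.43 on the left and 0.92 on the right, and the L191A guide effect moves from -0.61 to -0.08.

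After sgPOU2F3 the lines were closer to each other. For L191A against empty vector the medians were 0.02 and 0.02 for the large and small subunits in both fits. Over all 18 libraries, 0 of 78 members were called higher and 0 lower, beside 4.04% higher and 4.23% lower among all genes tested. Over 16 libraries, 0 were called higher and 2 (2.56%) lower, against 14.8% and 15.8% of all genes. Every share lay below the background. At an unadjusted p of 0.05, 0 members passed with 18 libraries, where 19.7% of all genes did. The members called with 16 were MRPS10 (-0.34) and MRPL2 (-0.35), and MRPL19 had 0.17 ± 0.13 (adjusted p = 0.536, limma). Without rescaling the median over all members was -0.05.

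After sgPOU2F3 most members had lower values in WT than in empty-vector cells once the skewed WT library was left out. The fit of 18 libraries called 0 of the 78 members higher and 2 lower (2.56%), where 14.6% and 15.8% of all genes tested were called higher and lower. That of 16 libraries called 2 higher (2.56%) and 24 lower (30.8%), where 24.6% and 25.9% of all genes were. The share called lower with 16 libraries was slightly above the background. The median change on the log2 scale was -0.06 for the large and -0.08 for the small subunit with 18 libraries, and -0.29 and -0.29 with 16 (all genes tested, 0.00 and -0.01). The cytosolic ribosomal proteins had the other sign, with medians of 0.87 and 0.56. MRPL49 (-0.39 ± 0.12, adjusted p = 0.0199, limma) and MRPL4 (-0.59, adjusted p = 0.0448, limma) were called in both fits. MRPL49 was at 75.1, 61.8 and 62.1 scaled TPM in WT cells, all below the empty-vector values given above. With 16 libraries MRPL12 (-0.68) and MRPS26 (-0.57) were called lower too, and MRPL30 higher (0.24).

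L191A cells had higher values than WT cells after sgPOU2F3, MRPL1, MRPL4, MRPS12 and MRPL12 foremost, again once the skewed WT library was left out. Of the 78 members, 0 were called higher and 0 lower with 18 libraries, against a background over all genes tested of 10.7% higher and 11.6% lower. Without the skewed pair, 21 (26.9%) were higher and 2 (2.56%) lower, against a background of 23% and 21.6%. The share called higher with 16 libraries was near the background. Large-subunit members had a median log2 change of 0.09 and small-subunit members of 0.07 with 18 libraries, against 0.01 for all genes tested; with 16 these were 0.30, 0.29 and 0.02. The cytosolic ribosomal proteins again had the other sign (-0.60 and -0.30). At an unadjusted p of 0.05, 1 member passed with 18 libraries, where 33.8% of all genes did; it was MRPL49 (0.26 ± 0.12, adjusted p = 0.129, limma). With 16 libraries MRPL1 (0.75), MRPL4 (0.48), MRPS12 (0.64) and MRPL12 (0.55) led the members called higher and MRPL30 was called lower (-0.31).

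MRPS25 ran against most other members in empty-vector and WT cells, where it was lower after sgPOU2F3. The gene, on chr3:15042460-15065335, minus strand (GENCODE, GRCh38), encodes a small-subunit protein with no bacterial counterpart. It was at 44.9, 44.2 and 46.7 scaled TPM in empty-vector cells with sgRosa and 31.3, 36.6 and 33.3 after sgPOU2F3. In WT cells it was at 61.6, 59.1 and 61.0 and 33.2, 44.6 and 44.1, and in L191A cells at 65.5, 42.5 and 43.8 and 35.4, 35.0 and 31.7. In every line each sgPOU2F3 library lay below each sgRosa library, with or without the skewed ones. The changes were -0.41 ± 0.15 in empty-vector cells (adjusted p = 0.0569, limma, so not called with 18 libraries), -0.58 ± 0.15 in WT cells (adjusted p = 0.0298, limma) and -0.53 ± 0.15 in L191A cells (adjusted p = 0.0375, limma). With 16 libraries they were -0.41, -0.44 and -0.33 (adjusted p = 0.000148, 0.00187 and 0.00758, limma), and no other member was called in all 3 lines. The shares of all genes called lower in all 3 lines, or lower without overlap in each line, were not counted. MRPS25 is therefore set apart only from the other members and not from genes at large. In the fit of 18 libraries the L191A call was lost without L191A sgRosa replicate 1, or without any 1 of the sgPOU2F3 replicates. With the length trend removed from 16 libraries, the L191A change was -0.31 and not called (adjusted p = 0.0655, limma), while the calls in the other lines remained. Differences of its response between lines were not called (adjusted p = 0.882, 0.594 and 0.536 with 16 libraries, limma). The tuft marker TRPM5, a taste-type cation channel, fell in the same libraries, from 232, 216 and 253 to 53.0, 79.6 and 53.1 scaled TPM in empty-vector cells (adjusted p = 2.04e-05, limma). The tuft markers did not all follow it in WT cells. There BMX, GFI1B and LRMP changed by 1.71, 0.44 and 0.37 with 18 libraries, while the other markers were below 0 (TRPM5 at -1.62 and AVIL at -0.01). A link between MRPS25 and these markers was not tested.

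**Figure D4:**
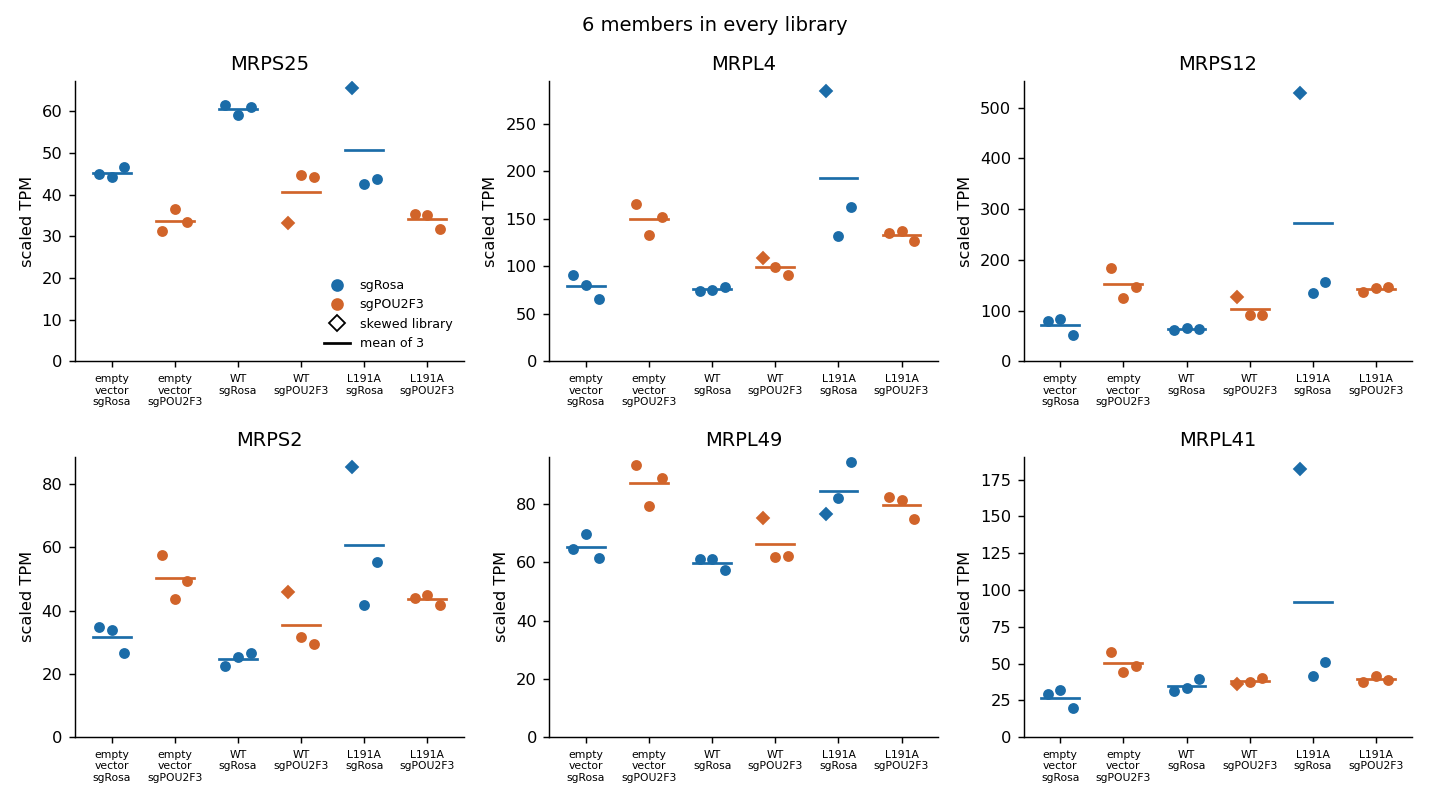
Scaled TPM of MRPS25, MRPL4, MRPS12, MRPS2, MRPL49 and MRPL41 in the 18 libraries by line and guide (blue sgRosa, orange sgPOU2F3), with 1 point a library, bars at the mean of 3 and diamonds for the 2 skewed libraries. MRPS25 is lower with sgPOU2F3 in all 3 lines, while in the other 5 genes the empty-vector libraries are higher with sgPOU2F3 and the skewed L191A sgRosa library is the highest value except in MRPL49.

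The members were also split by whether their protein was classed as having a bacterial counterpart. With 18 libraries 4 members were called higher in empty-vector cells, too few to split, so the counts below rest on 16 libraries, where 28.5% of all genes were called higher in empty-vector and 17.3% in WT cells. Of 45 members with a bacterial counterpart, 31 (68.9%) were called higher after sgPOU2F3 in empty-vector cells, at a median of 0.51, and of 29 without one, 16 were, at a median of 0.41; 4 members were not classed. In WT cells these were 28 and 14, with medians of 0.51 and 0.53. Large-subunit members were called higher in 34 of 51 cases in empty-vector cells and small-subunit members in 16 of 26. Members with the ETS core in a promoter window were 19 of the 47 matched members called higher there and 11 of the 22 matched others.

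Some members call for a word of their own. MRPS36, the one that is no ribosomal protein, changed by 0.18 ± 0.35 in empty-vector cells (adjusted p = 0.753, limma) and 0.49 in WT cells with 16 libraries, within the range of the others. MRPS30, a large-subunit protein despite its name, changed by 0.24 ± 0.23 (adjusted p = 0.490, limma), with no overlap between guides, and MRPS18A by 0.38 ± 0.30 (adjusted p = 0.382, limma). MRPL46 (chr15:88459476-88467419, minus strand) and MRPS11 (chr15:88467453-88480773, plus strand) are head-to-head neighbours with 33 bases between their annotated 5′ ends (GENCODE, GRCh38). In WT cells MRPL46 changed by 0.80 and MRPS11 by 0.30 with 16 libraries, and in empty-vector cells by 0.36 and 0.32. MRPL46 had a mean of 27.2 TPM and MRPS11 14.4 TPM; whether counting used strand is not given in the sources used here.

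Other genes of mitochondrial translation were read from lists in the empty-vector comparison. As given above, 13% of all genes tested were called higher and 13.5% lower with 18 libraries, and 28.5% and 26.9% with 16. Of 5 further ribosomal proteins with other symbols (DAP3, AURKAIP1, CHCHD1, PTCD3 and GADD45GIP1), none was called with 18 libraries and 3 were called higher with 16, at a median of 0.45. GADD45GIP1 changed by 0.93 ± 0.39 (adjusted p = 0.0943, limma, and 0.000377 with 16 libraries). Of 25 assembly factors measured, 4 were called higher and none lower with 18 libraries, near the background, and 14 (56.0%) higher with 16, above it, at a median of 0.31. DHX30, an RNA helicase of mitochondrial RNA granules, rose by 0.51 ± 0.11 (adjusted p = 0.00266, limma), MTG2, a GTPase of large-subunit assembly, by 0.48 ± 0.11 (adjusted p = 0.00334, limma), and MRM1, a methyltransferase of the ribosomal RNA, by 0.81 ± 0.19 (adjusted p = 0.00437); MPV17L2 was the fourth. In WT cells the changes of these 3 with 16 libraries were 0.10, 0.14 and 0.13, none of them called.

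Translation factors were mixed. Of 17, none was called higher and 2 lower with 18 libraries: HEMK1, a methyltransferase of release factors (-0.59 ± 0.17, adjusted p = 0.0169, limma), and MTRF1, a release factor (-0.44 ± 0.14, adjusted p = 0.0336, limma). With 16 libraries 7 were higher and 3 lower, at a median of 0.13. Of 9 genes of mitochondrial transcription and DNA, 3 (33.3%) were called higher and none lower with 18 libraries, and 6 (66.7%) and none with 16, where TFAM, TFB2M and TEFM were added. POLRMT, the mitochondrial RNA polymerase, rose by 0.51 ± 0.15 (adjusted p = 0.0187, limma), TWNK, the helicase, by 0.75 ± 0.22 (adjusted p = 0.0190), and POLG, the DNA polymerase, by 0.67 ± 0.22 (adjusted p = 0.0349). Of 9 regulators of mitochondrial biogenesis measured, PPRC1 (0.79 ± 0.18, adjusted p = 0.00446, limma) and ESRRA (0.64 ± 0.17, adjusted p = 0.0117, limma) were called higher with 18 libraries; the first is a coactivator and the second an orphan nuclear receptor. With 16 libraries NRF1 was called higher too (adjusted p = 0.0256, limma), and GABPA and GABPB2 lower (for GABPB2, adjusted p = 0.0172, limma). GABPA, which reads the ETS core, was at 38.5, 41.9 and 45.9 scaled TPM and then 30.5, 33.0 and 31.9 (-0.39 ± 0.15, adjusted p = 0.0625, limma; 0.000611 with 16 libraries). The 13 mRNAs encoded in mitochondrial DNA were not analysed here.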

How the data were processed

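NCI-H211 poly(A) RNA of 18 libraries (6 groups of 3) was sequenced after TRIzol extraction and a TruSeq preparation, per the labels' protocols. The authors deposited TPM values, made with kallisto on hg38 per the submitters' processing notes; its version, transcript set and any strandedness were not given in the sources used here. All columns sum alike, so depth is unknown, and the precision rests on the 3 libraries per group. Of 19875 entries, 131 that named no gene (104 fragments and 27 dates, 1.64% to 2.43% of TPM) were left out. Libraries were rescaled by the median ratio over genes, and log2(scaled TPM + 1), which understates changes of low genes, was fitted with limma 3.58.1 (R 4.3.3, variance trend). The 13066 genes whose mean reached 1 TPM entered, with 1 coefficient per group and 12 two-sided contrasts, each with Benjamini-Hochberg adjustment at 0.05.

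The members and lists were chosen with earlier results of these data known. Named were the 5 highest and lowest members, up to 10 each way for empty-vector cells and 4 elsewhere, by the smallest p among called members whose replicates did not overlap, or 2 where none was called, plus MRPS30, MRPS18A, MRPL12 and MRPS36; list genes were named by the same criterion, and MRPL10, MRPL36, MRPL58, MRPL46, MRPS11, GABPA, GADD45GIP1 and TRPM5 were shown after their values were seen. Lengths came from GENCODE v29 (97.7% of tested genes and all 78 members) and the trend against length was a lowess of span 0.3. The fit was tested on simulated data. Alternatives were no rescaling, 16 libraries, a pseudocount of 0.1, other filters, the replicate number as a block, removal of the length trend and leaving out each library; combining 16 libraries with length was added after seeing the data. Same-numbered replicates did not deviate together in most pairs (16 of 45 pairs correlated above 0.1), so the numbers were not used as pairs. Replicates 1 and 2 of empty-vector sgPOU2F3, WT sgPOU2F3 and L191A sgRosa did so, with correlations from 0.434 to 0.619. Among the replicates numbered 3 of these groups the correlations were -0.413, -0.222 and 0.249.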

Additional observations from a re-analysis of the deposited data

Results flagged for a closer look

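The response to sgPOU2F3 differed between lines by the interaction test for a number of members. Between L191A and empty-vector cells 6 of 78 members passed with 18 libraries, all with a lower response in L191A cells. That share was near the 5.81% of all genes tested that were called lower. Among the 6 were MRPL4 (-1.39 on the log2 scale), MRPS2 (-1.06), MRPL38 (-1.16) and MRPL41 (-1.77). Between L191A and WT cells 14 of 78 passed, again lower in L191A, a share above the 7.19% of all genes tested that were called lower. Among the 14 were MRPL15 (-1.73), MRPL42 (-1.18), MRPL3 (-1.01) and MRPS35 (-1.21). All of these values take in the skewed L191A sgRosa library, and those between L191A and WT cells also take in the skewed WT sgPOU2F3 library. With 16 libraries the differences were -1.07, -0.79, -0.76 and -1.12 for the first 4 genes and -0.98, -0.66, -0.65 and -0.70 for the others. The 6 members of the first comparison were all called again with 16 libraries, as were 10 of the 14 of the second.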

How the results depend on the processing

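Counts here are members called of 78, in either direction, over 18 libraries unless stated. They show how calls move with the processing, and the share of all genes called moved as well. In the comparisons between groups no median changed sign except that of L191A against empty vector after sgPOU2F3, and no named member reversed. The large-subunit median rise after sgPOU2F3 was larger in WT than in empty-vector cells with 18 libraries. With the length trend removed from 16 libraries it was smaller in WT cells. Of the values for named members under the alternatives, 894 kept their status, which counts members not called in either fit. A call was lost in 159 and gained in 179.

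With 16 libraries the counts moved to 51 for the effect of sgPOU2F3 in empty-vector cells, 45 for that in WT cells, 26 for WT and 2 for L191A against empty vector after sgPOU2F3, 23 for L191A against WT after sgPOU2F3 and 40 for WT against empty vector under sgRosa. The differences of effect moved to 10 (WT against empty vector) and 17 (L191A against empty vector). On the deposited scale, in the same order of comparisons, the counts were 17 (empty-vector effect), 0 (L191A effect), 15 and 10 (WT against empty vector and L191A against WT, sgPOU2F3), 7 and 34 (WT and L191A against empty vector, sgRosa), and 7 and 6 (differences of effect, WT against empty vector and L191A against WT). With 16 libraries on the deposited scale they were 49, 32 and 0 for the effects in empty-vector, WT and L191A cells, 41, 6 and 37 for the pairs of lines after sgPOU2F3, 36 and 34 for WT and L191A against empty vector under sgRosa, and 17, 24 and 7 for the differences of effect. On the deposited scale with 18 libraries, 7.94% of all genes were called higher and 9.51% lower for the empty-vector effect. For L191A against empty vector under sgRosa these shares were 4.94% and 31.0%.

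Removing the trend against length gave 24 and 29 for the effects in empty-vector and WT cells, 11 and 11 for WT against empty vector and L191A against WT after sgPOU2F3, 15 for WT against empty vector under sgRosa, and 8, 13 and 22 for the differences of effect. Removing it from 16 libraries, an alternative chosen after seeing the data, gave 55, 38 and 2 for the 3 effects, 42, 6 and 43 for the pairs after sgPOU2F3, 37 for WT against empty vector under sgRosa, and 19 and 26 for the differences of effect of WT and L191A from empty vector. The background was then 29.7% higher and 28.6% lower for the empty-vector effect, and 15.2% and 10.6% for the WT effect. For WT against empty vector after sgPOU2F3 it was 26.6% and 28.2%, and for L191A against WT 25.9% and 24.1%. A larger count is therefore not by itself a stronger change of the members. Of the calls made with 16 libraries, 50 of 51 in empty-vector cells and 37 of 45 in WT cells were called again. A pseudocount of 0.1 gave 5 for the WT effect. No filter on low values gave 4 for the WT effect, 1 for WT against empty vector under each guide and 4 for the difference of L191A from WT. A minimum of 5 TPM gave 5 for the WT effect and 1 for WT against empty vector under sgRosa.

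With the replicate number as a block, the WT effect had 14 calls, the L191A effect 0 and the difference of effect between L191A and WT 45. Correlations between same-numbered libraries of different groups ran from -0.60 to 0.62. No other count moved by over 1.5 times.

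Leaving out 1 library at a time gave 1 to 32 calls for the empty-vector effect, 0 to 65 for the WT effect and 0 to 17 for the L191A effect. After sgPOU2F3 it gave 0 to 15 (WT against empty vector), 0 to 2 (L191A against empty vector) and 0 to 7 (L191A against WT). Under sgRosa it gave 0 to 15, 4 to 74 and 62 to 76 for the same pairs. The differences of effect had 0 to 10 (WT against empty vector), 1 to 32 (L191A against empty vector) and 0 to 75 (L191A against WT). The highest counts for both effects in empty-vector and WT cells came without L191A sgRosa replicate 1, which is in neither comparison. Depth is unknown, so what depth limits could not be set, and 3 libraries a group limit the precision. The cause of these moves was not tested.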
